A study of Mus musculus with 10 samples.

Results

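The collagen genes were examined by RNA-Seq in mouse liver and liver tumors. Of the 16697 named gene entries in the table, 36 had a symbol of the form used for collagen chains, that is Col, a type number, the letter a and a chain number. Among these, 35 encode collagen chains. The remaining entry, Col4a3bp, encodes the ceramide transfer protein, which is no collagen, and it was kept out of all collagen counts. A minimum level of 1 FPKM, as deposited, in at least 3 libraries was met by 21 of the 35 collagens, which were tested, while the other 14 were described by their range. FPKM are fragments per kilobase of transcript, scaled to the depth of the library.

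The 3 kinds of tissue compared were normal liver (NL, n = 4), tumors induced with c-MYC (c-MYC, n = 3) and tumors induced with c-MYC together with FOXO1AAA (c-MYC/FOXO1AAA, n = 3). FOXO1AAA is FOXO1, a forkhead transcription factor, with changes that keep it constantly active. Per the methods of the study, tumors were raised by hydrodynamic tail vein injection, which delivers plasmids to hepatocytes. The injected plasmids carried c-MYC with either FOXO1AAA or the empty pT3-EF1α vector, under the EF1α promoter, and a Sleeping Beauty transposase inserted them into the genome. All samples are labelled as wild type. The labels give the strain as C57BL/6, whereas the extraction notes and the methods name FVB livers, and the design text of the series names c-MYC/MCL1 tumors treated with MLN0128, everolimus or vehicle, which the methods describe as another experiment. The methods give the numbers per group as mice or normal livers, so libraries were taken as replicates, and ages are not given in the sources used here.

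The libraries held 13.1 to 20.5 M reads each. The Foxo1 entry, in deposited FPKM, was at 5.16 to 7.86 in NL and c-MYC and at 70.1 to 95.6 in c-MYC/FOXO1AAA, so the labels of the FOXO1AAA group held. The Myc entry was at 4.10 to 22.2 in NL and at 0.494 to 1.04 in the tumors, and whether reads of the injected c-MYC fall into it is not given in the sources used here. Of the marker lists, 8 hepatocyte genes, among them albumin, summed to 82910 to 92770 FPKM in NL, 3793 to 5564 in c-MYC and 888 to 1563 in c-MYC/FOXO1AAA. In c-MYC/FOXO1AAA versus c-MYC, the test described below called 4 of the 8 lower and 2 (Tat and Cyp2e1) higher. These calls compare with 12.7% and 15.9% of all genes, and albumin did not pass.

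Collagens are triple-helical proteins of the extracellular matrix, and each molecule is wound from 3 chains that may come from different genes. Fibrillar collagens such as types I, III and V form the cross-striated fibers of connective tissue and of fibrotic scars. Type IV collagen builds the network of basement membranes, FACIT collagens sit on the surface of fibrils, type VI forms beaded filaments, and the multiplexins, types XV and XVIII, lie in and next to basement membranes. In the liver, stellate cells and portal fibroblasts are known as the main makers of fibrillar collagen, and hepatocytes are known to express type XVIII.

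The make-up of the collagen transcripts differed between the 3 groups. In NL, the multiplexins held 85.7% ± 1.02 (SD, n = 4) of the summed collagen FPKM, and Col18a1 alone held 83.6 to 85.9%. In c-MYC, the multiplexins held 45.8% ± 5.20 (SD, n = 3) and the basement membrane class 38.8% ± 4.03. In c-MYC/FOXO1AAA, the fibrillar class held 59.0% ± 2.73 (SD, n = 3), the basement membrane class 16.6% ± 1.29 and the multiplexins 8.33% ± 2.80. The ranges of these 3 classes did not overlap between c-MYC and c-MYC/FOXO1AAA. Such shares are taken within a library and do not depend on how libraries are scaled to each other. These are bulk tissues, in which fewer cells of a type and less RNA per cell cannot be told apart.

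**Figure D1:**
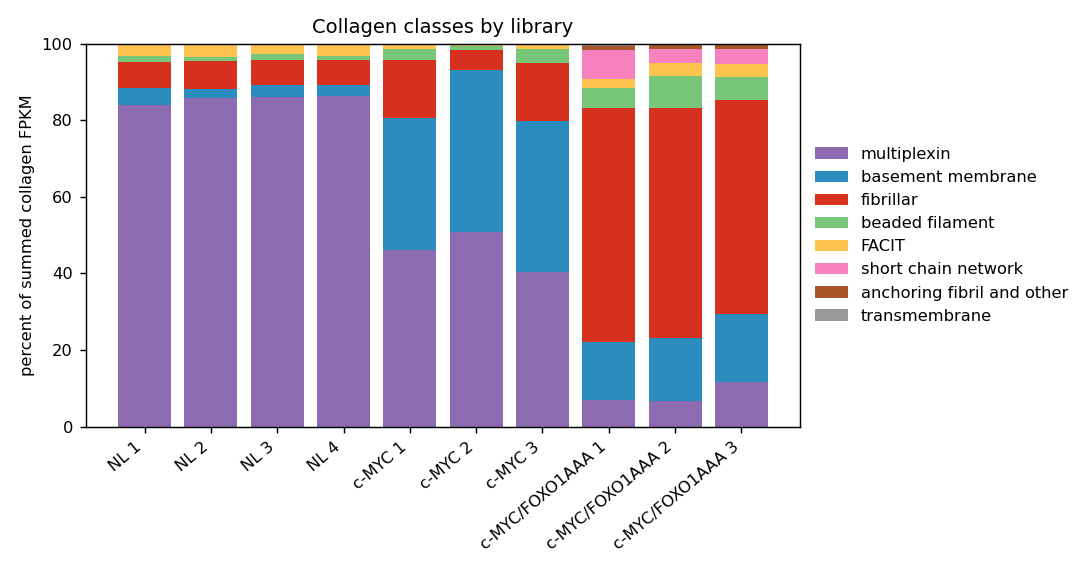
Share of the summed collagen FPKM held by each collagen class (y axis, percent) in each of the 10 libraries (x axis); every bar adds up to 100. Col18a1 and Col15a1 (multiplexin) hold the largest share in all 4 NL libraries, and the fibrillar class holds 56.0 to 61.2% in the 3 c-MYC/FOXO1AAA libraries.

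In absolute level, the summed FPKM of the 35 collagens was 370 ± 9.87 (SD, n = 4) in NL, 257 ± 22.6 (n = 3) in c-MYC and 211 ± 62.7 (n = 3) in c-MYC/FOXO1AAA. Without Col18a1, the sum was 51.8 to 61.4 in NL, 133 to 149 in c-MYC and 131 to 241 in c-MYC/FOXO1AAA. The fibrillar class alone summed to 25.2 ± 1.86, 29.4 ± 13.0 and 124 ± 34.6 FPKM in the same order of groups. NL and c-MYC overlapped in this class, and both stayed below c-MYC/FOXO1AAA. These sums depend on the authors' scaling factors, 0.65 to 0.68 in NL against 1.26 to 1.29 in c-MYC and 1.45 to 1.5 in c-MYC/FOXO1AAA. As unscaled collagen reads per 1 M reads of the library, the order of NL and c-MYC turned, with 1391 to 1485 in NL, 1851 to 2145 in c-MYC and 1197 to 2143 in c-MYC/FOXO1AAA.

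Differences were called with limma's test against a minimum change of 1.5-fold, 2-sided, at an adjusted p under 0.05 over 14017 genes. In c-MYC versus NL, 3 of 21 collagens were called higher (Col1a1, Col4a1 and Col4a2), where 24.5% of all genes were, and 3 lower (Col14a1, Col18a1 and Col27a1), where 23.6% of all genes were. In c-MYC/FOXO1AAA versus c-MYC, 9 of 21 were called higher against 15.9% of all genes, and 4 lower against 12.7%. In c-MYC/FOXO1AAA versus NL, 13 of 21 were called higher against 31.2% of all genes, and 3 lower against 26.6%. Of the 21, 8 would not have met the limit for testing without the c-MYC/FOXO1AAA libraries, where they were high, namely Col2a1, Col5a2, Col8a1, Col9a2, Col10a1, Col11a2, Col16a1 and Col26a1. All 8 are among the 9 called higher over c-MYC, and 7 of them among the 13 called higher over NL. The filter thus favored this direction, and the counts and medians are a description only. The same holds for the p-values of these 8 genes in the contrasts with c-MYC/FOXO1AAA. With a mean FPKM of at least 5 as the limit, 7 collagens were tested, of which 1 was higher over c-MYC and 5 over NL. The median log2 fold change of the 21 collagens was 0.30, 1.61 and 1.73 in these contrasts, while that of all genes was 0.08, 0.03 and 0.21. Scaled to the same FPKM total, 8 collagens were higher and 1 lower in c-MYC versus NL (50.4% and 13.5% of all genes), and c-MYC/FOXO1AAA versus NL had 18 higher and 2 lower (58.0% and 14.97%), as the median of all genes moved to 1.01 and 1.31. The contrasts share libraries, so their values are given side by side and were not set against each other.

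**Figure D2:**
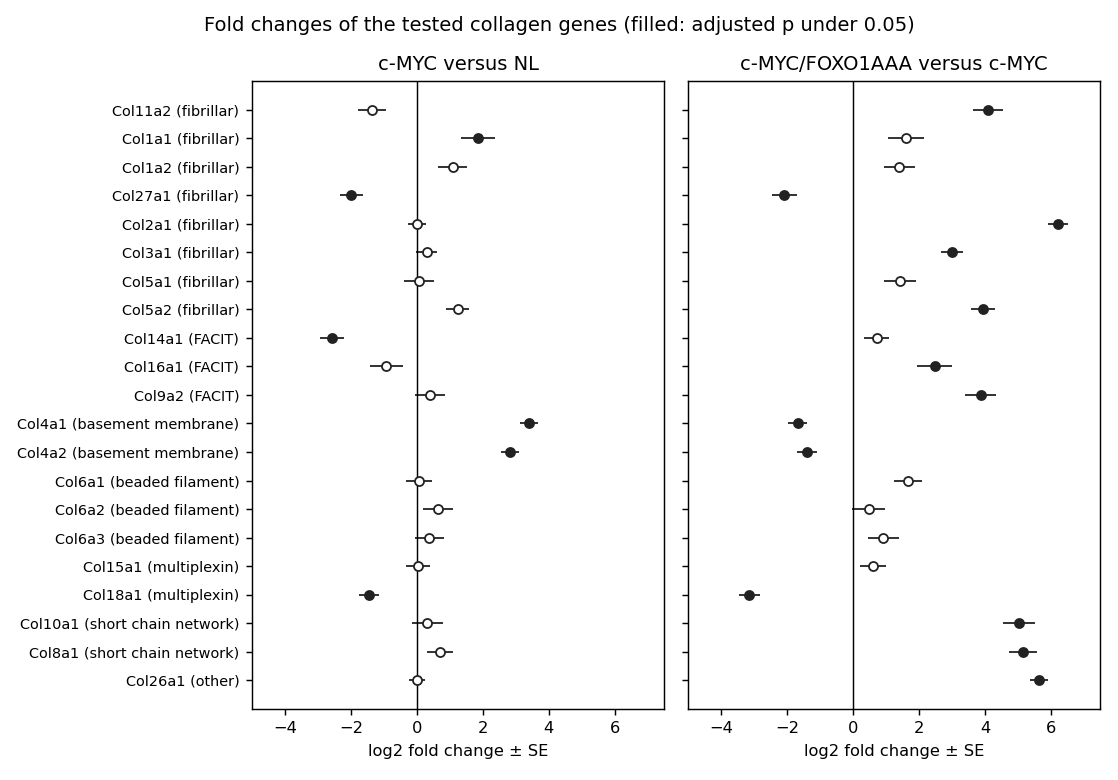
Log2 fold change ± standard error (x axis) of the 21 tested collagens (y axis, with their class) in c-MYC versus NL (left) and c-MYC/FOXO1AAA versus c-MYC (right); filled points have an adjusted p under 0.05. On the right, 9 filled points lie above 0 and 4 below, and Col4a1 and Col4a2 lie above 0 on the left and below 0 on the right.

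Upstream sequence was looked at in 29 collagens with an entry in the RefSeq promoter table (GRCm38.p6), as the 250 bases before the annotated start in 32 windows. The 5 windows shown are those of Col27a1 and of 4 collagens called higher in c-MYC/FOXO1AAA versus c-MYC. Col27a1 is included as it was lower in that contrast and in c-MYC versus NL, and none of them overlaps an annotated exon. Each runs 5′ to 3′ on the strand of the gene, and capitals mark TATAAA on that strand, and GGGCGG (the GC box) or CCAAT on either strand.
Col3a1 (chr1:45311288-45311537, plus strand): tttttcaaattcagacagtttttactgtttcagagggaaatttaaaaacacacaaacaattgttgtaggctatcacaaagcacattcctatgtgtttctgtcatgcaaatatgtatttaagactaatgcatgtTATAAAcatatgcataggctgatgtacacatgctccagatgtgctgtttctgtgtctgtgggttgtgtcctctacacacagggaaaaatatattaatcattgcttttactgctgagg
Col8a1 (chr16:57754738-57754987, minus strand): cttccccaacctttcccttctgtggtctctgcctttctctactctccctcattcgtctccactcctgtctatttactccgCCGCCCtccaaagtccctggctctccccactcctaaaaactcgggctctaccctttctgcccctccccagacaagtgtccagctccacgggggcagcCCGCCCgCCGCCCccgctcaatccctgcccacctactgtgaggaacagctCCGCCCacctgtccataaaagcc
Col10a1 (chr10:34389731-34389980, plus strand): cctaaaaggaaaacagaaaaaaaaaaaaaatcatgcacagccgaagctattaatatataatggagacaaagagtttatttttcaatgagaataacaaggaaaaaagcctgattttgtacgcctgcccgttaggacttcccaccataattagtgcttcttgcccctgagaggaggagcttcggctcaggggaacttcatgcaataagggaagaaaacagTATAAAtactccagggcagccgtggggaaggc
Col11a2 (chr17:34038888-34039137, plus strand): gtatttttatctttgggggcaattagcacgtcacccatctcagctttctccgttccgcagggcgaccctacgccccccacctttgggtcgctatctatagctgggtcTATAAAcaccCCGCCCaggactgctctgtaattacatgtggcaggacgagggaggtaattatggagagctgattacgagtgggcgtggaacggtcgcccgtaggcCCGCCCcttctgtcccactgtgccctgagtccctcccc
Col27a1 (chr4:63215162-63215411, plus strand): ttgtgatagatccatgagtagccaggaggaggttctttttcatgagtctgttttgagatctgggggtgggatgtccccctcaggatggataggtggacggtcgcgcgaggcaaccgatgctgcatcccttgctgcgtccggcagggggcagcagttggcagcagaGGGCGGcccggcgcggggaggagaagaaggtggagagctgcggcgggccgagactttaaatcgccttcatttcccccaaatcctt

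The windows differed in composition. GC content was 35.2% in Col3a1 and 41.6% in Col10a1 but 57.6 to 60.8% in the others, with a median of 59.4% over the 32 collagen windows and 52.4% over all 32841 windows of the table. Col10a1 held TATAAA 32 bases before the start, and Col3a1 held it 117 bases before. Col8a1 held 4 GC boxes and no TATAAA. The GC box was present in 59.4% of the collagen windows and 32.7% of all windows, TATAAA in 15.6% and 7.59%, and CCAAT in 34.4% and 33.9%. The forkhead motif GTAAACA, searched on both strands, was in 1 of the 32 collagen windows, 211 bases before the start of Col6a1, and in 3.17% of all windows. CACGTG, the E-box bound by c-MYC, was in 0 of 32 collagen windows and 6.02% of all. Such matches describe the letters of these windows and no more.

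Col18a1, the precursor of the angiogenesis inhibitor endostatin, was the most abundant collagen of normal liver. It was at 314, 325, 306 and 315 FPKM in NL 1 to 4, at 110, 142 and 96.6 in c-MYC 1 to 3, and at 8.05, 11.4 and 23.7 in c-MYC/FOXO1AAA 1 to 3. No group overlapped with another. It fell by 1.46 ± 0.29 (SE) on the log2 scale in c-MYC versus NL (adjusted p = 0.0164), and by 3.14 ± 0.31 in c-MYC/FOXO1AAA versus c-MYC (adjusted p = 5.8e-05). From NL to c-MYC/FOXO1AAA, the level was 24.3-fold lower (adjusted p = 4.3e-07). The first of these calls was lost when libraries were set to the same FPKM total (log2 fold change -0.53, adjusted p = 0.713), under quantile normalization (adjusted p = 0.461) and without c-MYC 3 (adjusted p = 0.0575). The other multiplexin, Col15a1, ranged from 1.96 to 2.38 FPKM in NL, 1.55 to 2.65 in c-MYC and 1.56 to 5.09 in c-MYC/FOXO1AAA. It passed the test in no contrast with all libraries and the authors' scaling, and its groups overlapped. In c-MYC/FOXO1AAA versus NL, Col15a1 passed as higher with the same FPKM total (adjusted p = 0.0055) and without c-MYC/FOXO1AAA 1 (adjusted p = 0.0361).

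The basement membrane class followed another course, with its highest level in c-MYC. Col4a1, which pairs with Col4a2 in the common form of type IV collagen, was at 9.20, 5.05, 6.13 and 5.48 FPKM in NL, at 56.2, 80.6 and 63.9 in c-MYC, and at 13.2, 25.2 and 26.2 in c-MYC/FOXO1AAA. Col4a2 was at 6.47, 3.47, 4.65 and 4.47 in NL, at 27.4, 39.5 and 33.0 in c-MYC, and at 7.59, 15.8 and 16.01 in the combined tumors. For both genes, c-MYC lay above the other groups, and c-MYC/FOXO1AAA above NL, with no overlap.

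In c-MYC versus NL, Col4a1 rose 10.5-fold (log2 fold change 3.39 ± 0.27 SE, adjusted p = 4.6e-06) and Col4a2 rose 7.05-fold (2.82 ± 0.28, adjusted p = 3.3e-05). In c-MYC/FOXO1AAA versus c-MYC, Col4a1 was 3.21-fold lower (adjusted p = 0.00754) and Col4a2 2.64-fold lower (adjusted p = 0.0398). The Col4a2 call was lost under 7 alternatives, among them without c-MYC/FOXO1AAA 1 (adjusted p = 0.141) and with the same FPKM total (adjusted p = 0.0752). Against NL, both were higher in c-MYC/FOXO1AAA, by 3.27-fold for Col4a1 (adjusted p = 0.00208) and 2.67-fold for Col4a2 (adjusted p = 0.0140). The Col4a2 call over NL was lost without c-MYC/FOXO1AAA 2 (adjusted p = 0.05985) and without c-MYC/FOXO1AAA 3 (adjusted p = 0.0565). The genes lie head to head on chromosome 8, Col4a1 at chr8:11198423-11312826 on the minus strand and Col4a2 at chr8:11312805-11449287 on the plus strand of GRCm38, and their ends overlap by 22 bases.

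The remaining type IV chains were scarce. Col4a5 ranged from 0.141 to 0.426 FPKM in NL, from 0 to 0.0167 in c-MYC (0 to 2 reads) and from 0.410 to 0.871 in c-MYC/FOXO1AAA. Its neighbor Col4a6, whose start lies 1309 bases away on chromosome X, stayed at or under 0.186, and Col4a4 stayed at or under 0.0961. Col4a5 thus had its lowest level where Col4a1 and Col4a2 had their highest. These 3 chains, parts of the type IV networks of kidney, lung and smooth muscle, were below the limit for testing.

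Among markers of endothelial cells, which line vessels and lie on basement membranes, 7 of 11 tested were called lower in c-MYC versus NL, where 23.6% of all genes were. Their summed FPKM was 99.0 to 117 in NL, 23.3 to 41.6 in c-MYC and 44.7 to 53.5 in c-MYC/FOXO1AAA. The difference between the tumor groups rested on Cdh5, without which the sums were 95.2 to 113, 20.1 to 35.5 and 17.8 to 26.6. With or without it, the list was below NL in c-MYC, where Col4a1 and Col4a2 were above NL, and its part in their levels was not tested.

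**Figure D3:**
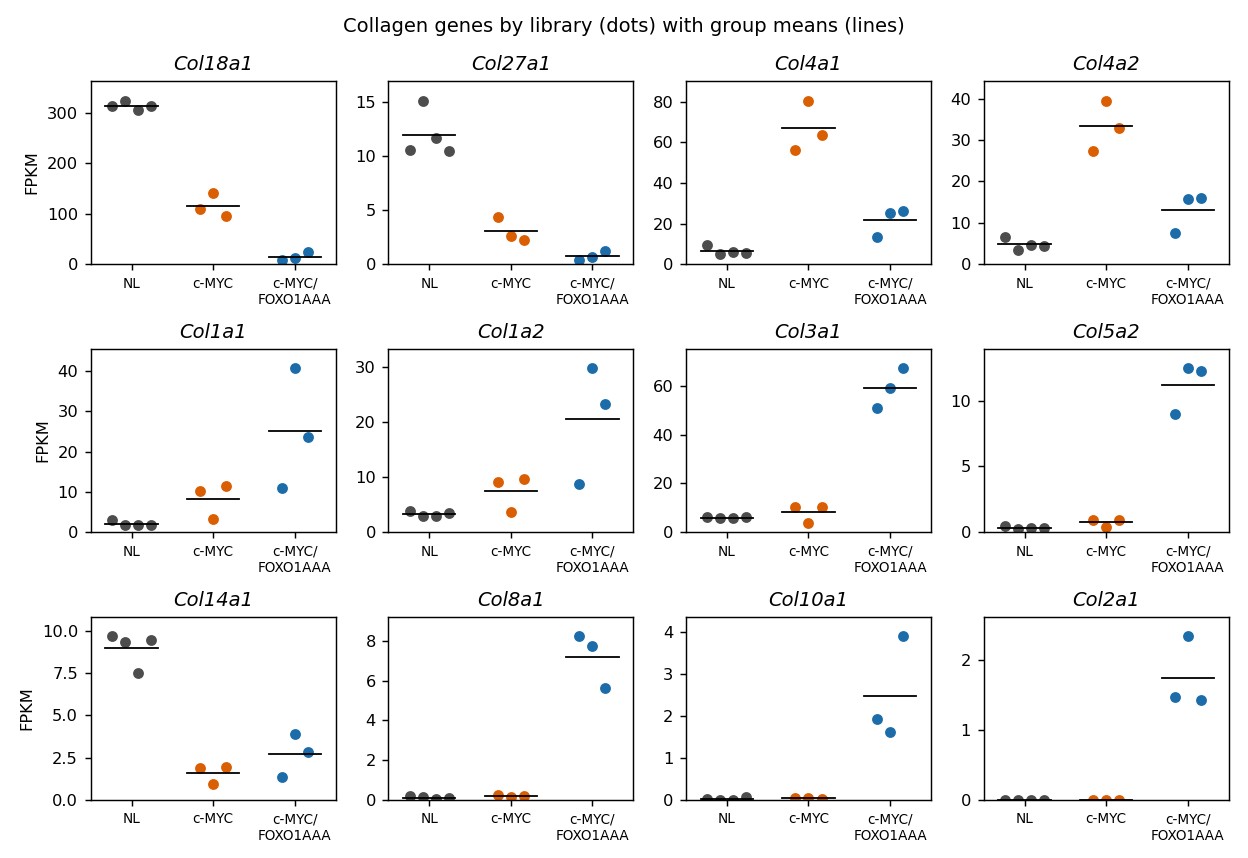
FPKM (y axes, from 0) of 12 collagen genes in NL, c-MYC and c-MYC/FOXO1AAA; each dot is a library and each line a group mean. Col18a1 and Col27a1 step down over the groups, Col4a1 and Col4a2 are highest in c-MYC, and Col3a1, Col5a2, Col8a1, Col10a1 and Col2a1 are high in all 3 c-MYC/FOXO1AAA libraries.

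Of the 10 fibrillar collagens, 8 were tested. In c-MYC versus NL, 1 was called higher and 1 lower, against 24.5% and 23.6% of all genes. In c-MYC/FOXO1AAA versus c-MYC, 4 were called higher (Col2a1, Col3a1, Col5a2 and Col11a2) and 1 lower (Col27a1), against 15.9% and 12.7%. Of the 4, Col2a1, Col5a2 and Col11a2 were tested only because of their level in c-MYC/FOXO1AAA. Col3a1, the chain of type III collagen found with type I in scars and vessel walls, was at 6.02, 5.91, 5.56 and 6.23 FPKM in NL, at 10.2, 3.62 and 10.42 in c-MYC, and at 50.9, 59.4 and 67.3 in c-MYC/FOXO1AAA. NL and c-MYC overlapped, and c-MYC/FOXO1AAA lay above both. The rise over c-MYC was 8.06-fold (log2 fold change 3.01 ± 0.34 SE, adjusted p = 0.000124), and c-MYC differed from NL by 0.30 ± 0.31 (adjusted p = 1.0).

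Col1a1 and Col1a2 encode the chains of type I collagen, the main collagen of bone, skin and scar. Col1a1 was at 3.05, 1.70, 1.74 and 1.62 FPKM in NL, at 10.2, 3.14 and 11.3 in c-MYC, and at 10.96, 40.7 and 23.5 in c-MYC/FOXO1AAA. Col1a2 was at 3.89, 2.82, 2.89 and 3.44 in NL, at 9.08, 3.69 and 9.72 in c-MYC, and at 8.71, 29.8 and 23.4 in c-MYC/FOXO1AAA. For both genes the lowest library of c-MYC was c-MYC 2 and that of c-MYC/FOXO1AAA was replicate 1, and the tumor groups overlapped.

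Col1a1 was called higher in c-MYC versus NL (3.63-fold, log2 fold change 1.86 ± 0.52 SE, adjusted p = 0.0363), a call that was lost under 8 of 19 alternatives. Its difference between the tumor groups was 1.61 ± 0.55 on the log2 scale (adjusted p = 0.141), and that of Col1a2 was 1.40 ± 0.46 (adjusted p = 0.161). Without c-MYC/FOXO1AAA 1, both passed the test, Col1a1 at 2.11 (adjusted p = 0.0400) and Col1a2 at 1.93 (adjusted p = 0.0129). Over NL, c-MYC/FOXO1AAA was 11.1-fold higher in Col1a1 (adjusted p = 0.000320) and 5.61-fold higher in Col1a2 (adjusted p = 0.00156).

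Type V collagen, which is known to start fibrils and set their width, had chains that moved apart. Col5a2 was at 0.424, 0.208, 0.263 and 0.303 FPKM in NL, at 0.938, 0.409 and 0.928 in c-MYC, and at 9.0, 12.5 and 12.2 in c-MYC/FOXO1AAA. It rose 15.3-fold over c-MYC (log2 fold change 3.93 ± 0.37 SE, adjusted p = 2.1e-05). Col5a1 was at 0.846 to 1.06 in NL, at 1.29, 0.505 and 1.37 in c-MYC, and at 1.26, 4.34 and 3.24 in c-MYC/FOXO1AAA. Its difference of 1.42 ± 0.48 from c-MYC did not pass the test (adjusted p = 0.163), and c-MYC/FOXO1AAA 1 lay below c-MYC 1 and 3. Without c-MYC/FOXO1AAA 1, Col5a1 passed over c-MYC at 1.94 (adjusted p = 0.0205) and over NL at 2.0 (adjusted p = 0.00608). Col5a3 stayed between 0.199 and 0.899 in all libraries.

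Col3a1 and Col5a2 are neighbors on chromosome 1 (chr1:45311538-45349706, plus strand, and chr1:45374321-45503282, minus strand), with 24614 bases between the genes. Both passed the test between the tumor groups and against NL in c-MYC/FOXO1AAA. In c-MYC versus NL neither passed with all libraries and the authors' scaling, with Col5a2 at 1.24 ± 0.35 SE (adjusted p = 0.0844). There, Col5a2 passed with the same FPKM total (adjusted p = 0.000613), under quantile normalization (0.0205), without NL 1 (0.0421) and without c-MYC 2 (0.00985). Col3a1 passed there with the same FPKM total (adjusted p = 0.0443).

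Cartilage collagens of the fibrillar class were present in c-MYC/FOXO1AAA. Col2a1, the chain of type II collagen of cartilage, had 0 reads in all 7 NL and c-MYC libraries and was at 1.48, 2.35 and 1.43 FPKM (186, 358 and 143 reads) in c-MYC/FOXO1AAA. A floor of 3 reads per library puts the difference at at least 55.2-fold over c-MYC and at least 29.0-fold over NL. limma's test, on the fitted log2 fold change, gave 6.22 ± 0.30 SE over c-MYC (adjusted p = 1.5e-07). Over NL it gave 6.22 ± 0.29 (adjusted p = 2.0e-08). With 0 reads elsewhere, the spread of this gene came from the c-MYC/FOXO1AAA libraries alone. Its fitted size shrank to 1.44 with a pseudocount of 1, and its p-values are a description only. Col11a2, a chain of the type XI collagen in cartilage fibrils, was at 0.299, 0.351, 0.457 and 0.129 in NL, at 0.0721, 0.0965 and 0.135 in c-MYC, and at 2.17, 1.32 and 2.68 in c-MYC/FOXO1AAA. The NL and c-MYC libraries overlapped and those of c-MYC/FOXO1AAA lay above, with a log2 fold change over c-MYC of 4.08 ± 0.46 SE (16.9-fold, adjusted p = 7.4e-05). Col11a1 reached 0.175 in c-MYC/FOXO1AAA and 0.0142 elsewhere, and was not tested.

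Col27a1, a fibrillar collagen known from cartilage and bone, went the other way. It was at 10.6, 15.1, 11.6 and 10.44 FPKM in NL, at 4.39, 2.59 and 2.25 in c-MYC, and at 0.400, 0.638 and 1.23 in c-MYC/FOXO1AAA. The 3 groups did not overlap. It was 3.99-fold lower in c-MYC than in NL (log2 fold change -2.0 ± 0.35 SE, adjusted p = 0.00310) and 4.25-fold below c-MYC in c-MYC/FOXO1AAA (-2.09 ± 0.37, adjusted p = 0.00543). With the same FPKM total, the first of these calls was lost (adjusted p = 0.124). Col18a1 and Col27a1 were the 2 collagens called lower in all 3 contrasts.

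Short chain collagens form hexagonal networks, and were at trace level outside c-MYC/FOXO1AAA. Their summed FPKM was 0.25 ± 0.0685 (SD, n = 4) in NL, 0.247 ± 0.0777 (n = 3) in c-MYC and 9.88 ± 0.420 (n = 3) in c-MYC/FOXO1AAA. Col8a1, a chain of type VIII collagen of vessel walls and corneal endothelium, was at 0.195, 0.125, 0.0602 and 0.0654 in NL (3 to 11 reads), at 0.235, 0.114 and 0.213 in c-MYC (11 to 22 reads), and at 8.25, 7.78 and 5.65 in c-MYC/FOXO1AAA. It was 35.2-fold above c-MYC in c-MYC/FOXO1AAA (log2 fold change 5.14 ± 0.42 SE, adjusted p = 6.3e-06). Its partner chain Col8a2 stayed between 0 and 0.197 in all libraries.

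Col10a1, the collagen of hypertrophic cartilage, had 3 reads over the 4 NL libraries, 6 over the 3 c-MYC libraries and 537 over those of c-MYC/FOXO1AAA, which were at 1.92, 1.60 and 3.89 FPKM. The ratio of reads per library size to c-MYC was 67.1, with a 95% exact interval of 30.6 to 184 that covers counting error only. limma's test called this difference (log2 fold change 5.04 ± 0.49 SE, adjusted p = 2.2e-05), whose fitted size shrank to 1.69 with a pseudocount of 1.

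Col26a1, a collagen known from developing testis and ovary, had 0 reads in all NL and c-MYC libraries and was at 1.56, 2.48 and 2.33 FPKM (107, 206 and 127 reads) in c-MYC/FOXO1AAA. With a floor of 3 reads per library it was at least 36.5-fold higher than in c-MYC. limma's test, on the fitted log2 fold change of 5.64 ± 0.27 SE, gave an adjusted p of 1.4e-07. Its spread, too, came from the c-MYC/FOXO1AAA libraries alone. The fitted size shrank to 2.83 with a pseudocount of 1. As Col26a1 was tested only through its level in c-MYC/FOXO1AAA, this p is a description only. Col7a1, the anchoring fibril collagen of skin, stayed at or under 0.0746 in all libraries.

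Among markers of chondrocytes and osteoblasts, cells known to express Col2a1, Col10a1 and Col11a2, 6 of 13 genes were in the table and 5 were tested, with 3 higher and 1 lower in c-MYC/FOXO1AAA versus c-MYC. Their summed FPKM was 22.8 to 29.1 in NL, 44.6 to 58.5 in c-MYC and 14.7 to 23.2 in c-MYC/FOXO1AAA. Alkaline phosphatase (Alpl) carried this sum, and without it the order turned, with 5.27 to 6.88, 1.60 to 2.14 and 10.7 to 16.9. Sox6, Comp and Chad were the 3 called higher, and Alpl the 1 called lower. Sox5, at a mean of 2.16 FPKM in NL, 0.195 in c-MYC and 0.0850 in c-MYC/FOXO1AAA, did not pass between the tumor groups. The limit for testing could let in genes through c-MYC/FOXO1AAA alone, so the count of this list is a description only. Skeletal muscle markers summed to 0.638 to 1.46 in NL, 2.92 to 7.36 in c-MYC and 250 to 330 in c-MYC/FOXO1AAA, where 7 of 8 were higher than in c-MYC (15.9% of all genes). In NL and c-MYC, Myod1, Myog, Myf5, Myf6 and Tnnt3 had at most 3 reads in any library. They were tested only because of their level in c-MYC/FOXO1AAA, so the count of muscle markers is a description only. The part of either list in the collagen levels was not tested.

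The FACIT collagens split. Of 6 in the table, 3 were tested. In c-MYC versus NL, 1 was lower, where 23.6% of all genes were. In c-MYC/FOXO1AAA versus c-MYC, 2 were higher (Col9a2 and Col16a1), where 15.9% of all genes were. Both were tested only because of their level in c-MYC/FOXO1AAA. Col14a1, which binds along type I fibrils, was at 9.69, 9.35, 7.52 and 9.46 FPKM in NL, at 1.87, 0.921 and 1.95 in c-MYC, and at 1.33, 3.92 and 2.85 in c-MYC/FOXO1AAA. All tumor libraries lay below all NL libraries. It was 5.92-fold lower in c-MYC than in NL (log2 fold change -2.57 ± 0.36 SE, adjusted p = 0.000409) and 3.62-fold below NL in c-MYC/FOXO1AAA (adjusted p = 0.00528), and the tumor groups overlapped. The second of these calls was lost with the same FPKM total (adjusted p = 0.385).

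Col16a1, which is found with fibrils and in dermis, was at 0.817, 1.04, 0.492 and 0.321 FPKM in NL, at 0.377, 0.183 and 0.418 in c-MYC, and at 0.928, 2.65 and 2.45 in c-MYC/FOXO1AAA. The latter lay above c-MYC and overlapped with NL. The level was 5.57-fold that of c-MYC (log2 fold change 2.48 ± 0.53 SE, adjusted p = 0.0104), a call lost with a pseudocount of 1 (adjusted p = 0.0651) and under quantile normalization (adjusted p = 0.0577). Col9a2, a chain of type IX collagen on cartilage fibrils, had 1 read over the NL libraries, 4 over the c-MYC libraries and 30, 95 and 78 in c-MYC/FOXO1AAA, or 0.416, 1.09 and 1.36 FPKM. The ratio of reads per library size to c-MYC was 38.0 (95% exact interval 14.6 to 141), and the adjusted p from limma was 0.000146. Col9a1 had 0, 16 and 30 reads in c-MYC/FOXO1AAA and 0 elsewhere.

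Of the FACIT collagens below the limit for testing, Col12a1 ranged from 0.0138 to 0.155 in NL and c-MYC and from 0.272 to 0.736 in c-MYC/FOXO1AAA. Col20a1 ranged from 0.400 to 0.847 in NL, 0 to 0.0326 in c-MYC and 0.0935 to 0.381 in c-MYC/FOXO1AAA. The transmembrane collagen Col13a1 had a like order, with 0.601 to 1.07 in NL, 0.0504 to 0.189 in c-MYC and 0.519 to 0.578 in c-MYC/FOXO1AAA, and Col17a1 stayed at or under 0.11.

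Type VI collagen, a filament around cells that is made by fibroblasts and muscle interstitium, showed smaller differences. Col6a1 was at 2.52, 2.17, 2.12 and 1.77 FPKM in NL, at 2.66, 1.08 and 3.81 in c-MYC, and at 4.51, 10.3 and 7.77 in c-MYC/FOXO1AAA. All 3 of the latter lay above all other libraries, with a log2 difference from c-MYC of 1.67 ± 0.43 SE that did not pass the test (adjusted p = 0.0509) and one from NL of 1.73 ± 0.40 that did (adjusted p = 0.0156). Without c-MYC/FOXO1AAA 2, the difference from NL did not pass (adjusted p = 0.0689), nor did it with the replicate block (adjusted p = 0.0560). That from c-MYC passed with the same FPKM total (adjusted p = 0.0210), without c-MYC 3 (adjusted p = 0.0132) and without c-MYC/FOXO1AAA 1 (adjusted p = 0.0227). Col6a2 ranged from 1.39 to 1.70 in NL, 1.24 to 3.77 in c-MYC and 1.46 to 5.43 in c-MYC/FOXO1AAA, and Col6a3 from 0.787 to 1.02, 0.840 to 1.55 and 1.16 to 5.19. Neither passed the test in any contrast with all libraries and the authors' scaling. Without c-MYC/FOXO1AAA 1, both passed against NL, Col6a2 with an adjusted p of 0.0135 and Col6a3 with one of 0.0136, and likewise with the same FPKM total (adjusted p = 0.00320 and 0.00111), where Col6a2 also passed in c-MYC versus NL (adjusted p = 0.0408). Col6a5 and Col6a6 stayed at or under 0.243.

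Within each tumor group, 1 library was the lowest in most members. Library c-MYC 2 was the lowest of its group in 13 of the 21 tested collagens, and c-MYC/FOXO1AAA 1 in 17 of 21. Relative to the mean of c-MYC 1 and 3, c-MYC 2 was at 0.291 in Col1a1, 0.351 in Col3a1 and 0.380 in Col5a1, but at 1.34 in Col4a1, 1.31 in Col4a2 and 1.38 in Col18a1. Relative to the mean of the other 2 libraries, c-MYC/FOXO1AAA 1 was at 0.288 in Col6a2, 0.328 in Col1a2 and 0.341 in Col1a1, but at 0.804 in Col3a1, 1.09 in Col11a2 and 1.23 in Col8a1. In Col4a1, Col4a2 and Col18a1 it was at 0.515, 0.477 and 0.459, where c-MYC 2 was above its group.

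**Figure D4:**
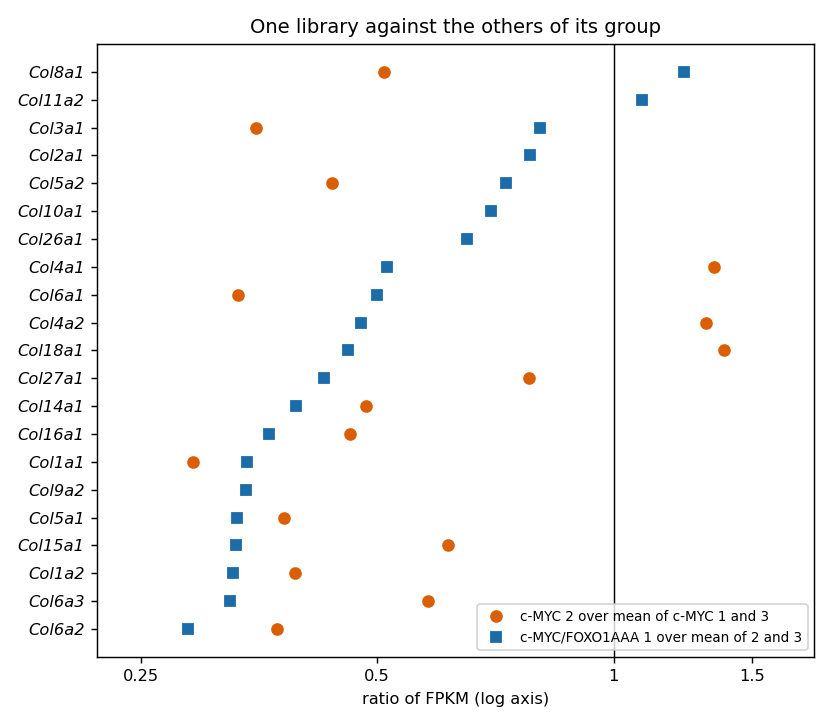
Level of c-MYC 2 relative to the mean of c-MYC 1 and 3 (circles) and of c-MYC/FOXO1AAA 1 relative to the mean of replicates 2 and 3 (squares) for each tested collagen with over 10 reads in those libraries; the x axis is the ratio of FPKM on a log scale and the line marks equality. Type I, V and VI chains other than Col5a2 lie at or under 0.581, and Col8a1, Col11a2 and Col3a1 of c-MYC/FOXO1AAA 1 lie between 0.804 and 1.23.

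Stellate cell and fibroblast markers were summed beside these libraries. Of the 16 genes in the table, 13 fell in c-MYC versus NL, where 23.6% of all genes did. Over c-MYC, 10 of the 16 rose in c-MYC/FOXO1AAA, against 15.9% of all genes. Set against NL, the list split in the combined tumors. There, 5 genes were called above NL (31.2% of all genes), namely Des, Pdgfrb, Acta2, Dcn and Cygb. Another 6 stayed below NL (26.6% of all genes), namely Lrat, Ngfr, Colec10, Colec11, Rgs5 and Ecm1. The summed FPKM of the 16 genes was 203 to 245 in NL, 11.8 in c-MYC 2 and 24.3 and 39.5 in the other c-MYC libraries. In c-MYC/FOXO1AAA it was 457 in replicate 1 and 376 and 414 in the others, and decorin (Dcn) carried this order. Without Dcn, the sum was 145 in replicate 1 and 198 and 196 in the others, while NL was at 141 to 162 and c-MYC at 20.4, 10.1 and 31.6. Des, at 57.4 to 69.2 FPKM, and Acta2, at 36.3 to 79.7, were large parts of that sum in c-MYC/FOXO1AAA. Col1a1 was thus higher in c-MYC than in NL while this list was lower, and the part of stromal cells in either was not tested. The sums of mesothelial markers were 2.45 to 7.51 in NL, 0.226 to 0.478 in c-MYC and 4.36 to 8.88 in c-MYC/FOXO1AAA. In c-MYC versus NL, 3 of 3 tested mesothelial markers were lower, where 23.6% of all genes were. The sums of macrophage markers were 86.5 to 151, 102 to 137 and 34.8 to 61.0, and those of biliary markers 18.9 to 26.1, 17.2 to 31.99 and 28.3 to 35.9. Single genes carried these orders too. Without Spp1, the biliary sums were 2.17 to 4.435 in NL, 15.2 to 30.6 in c-MYC and 4.53 to 11.7 in c-MYC/FOXO1AAA. Without Cd5l, the macrophage sums were 64.2 to 110, 48.7 to 55.65 and 28.9 to 48.0. Without c-MYC 2, 5 collagens were called higher in c-MYC versus NL instead of 3, with Col1a2 (adjusted p = 0.0498) and Col5a2 (adjusted p = 0.00985) added. Without c-MYC/FOXO1AAA 1, 13 were called higher over c-MYC instead of 9.

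Chains that assemble into a molecule, or fibrils that mix, were compared as ratios within a library. Col4a1 over Col4a2 was 1.36 ± 0.105 (SD, n = 4) in NL, 2.01 ± 0.0644 (n = 3) in c-MYC and 1.66 ± 0.0784 (n = 3) in c-MYC/FOXO1AAA, and the groups did not overlap. Col1a1 over Col1a2 was 0.615 ± 0.129, 1.05 ± 0.172 and 1.21 ± 0.185, with NL below both tumor groups. The textbook type I molecule holds more of the first chain than of the second.

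Col3a1 over Col1a1 was 3.12 ± 0.814 in NL, 1.02 ± 0.118 in c-MYC and 2.99 ± 1.60 in c-MYC/FOXO1AAA, where it was 4.65 in replicate 1 and 1.46 in replicate 2. Col5a1 over Col5a2 was 3.25 ± 0.649, 1.36 ± 0.118 and 0.251 ± 0.105, without overlap. Col6a1 over Col6a2 was 1.41 ± 0.203, 0.930 ± 0.0748 and 2.22 ± 0.775, also without overlap. Exact 2-sided permutation tests of these 5 ratios in 3 contrasts gave at the least p = 0.0571 for 4 against 3 libraries and p = 0.1 for 3 against 3, which are the smallest such designs allow. After adjustment over the 15 tests the smallest p was 0.0952, so no ratio could pass 0.05.

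**Figure D5:**
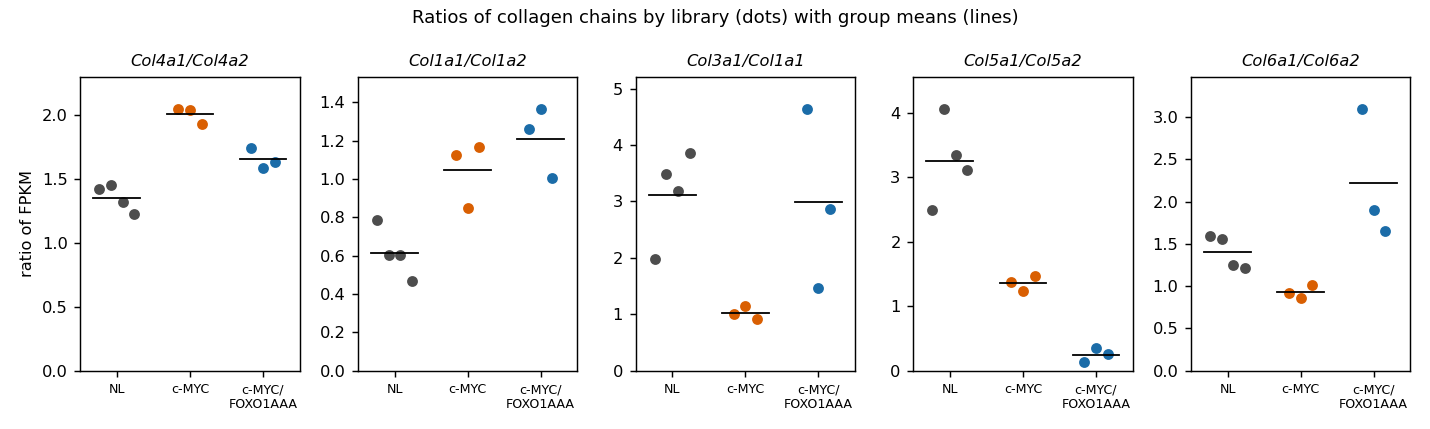
Ratio of FPKM of 2 collagen chains (y axes, from 0) in NL, c-MYC and c-MYC/FOXO1AAA; each dot is a library and each line a group mean. Col4a1 over Col4a2 is highest in the 3 c-MYC libraries, and Col5a1 over Col5a2 drops from 2.49 to 4.06 in NL to 0.140 to 0.349 in c-MYC/FOXO1AAA.

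Enzymes and chaperones that modify and fold collagen chains were counted next. Of 18 tested, 5 were higher and 4 lower in c-MYC versus NL, near the 24.5% and 23.6% of all genes, while between the tumor groups 8 were higher with FOXO1AAA and 1 was lower, against 15.9% and 12.7% of all genes. The median log2 fold change of the list was 0.13 and 1.08. As with the collagens, the limit for testing could let in genes through c-MYC/FOXO1AAA alone, and Plod2 stayed under 1 FPKM elsewhere. Counts and medians of this list are therefore a description only. Plod2, the lysyl hydroxylase of collagen telopeptides, was at 0.107 ± 0.0647 FPKM (SD, n = 4) in NL, 0.182 ± 0.126 (n = 3) in c-MYC and 14.3 ± 2.79 (n = 3) in c-MYC/FOXO1AAA, a log2 fold change of 6.25 ± 0.55 SE between the tumor groups. Its partner Fkbp10, a prolyl isomerase of the endoplasmic reticulum, rose from 0.740 ± 0.327 to 9.33 ± 0.245, and the prolyl hydroxylase family members P3h3 and P3h4 rose by 3.13 ± 0.33 and 2.89 ± 0.33 on the log2 scale. P4hb, protein disulfide isomerase and a subunit of prolyl 4-hydroxylase, was the one called lower and fell from 516 ± 24.8 to 165 ± 12.3 FPKM.

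Cross-linking enzymes were in part higher. Of 7 tested genes for procollagen cleavage and cross-linking, limma called 3 higher in c-MYC/FOXO1AAA versus c-MYC, against 15.9% of all genes, and the other 4 (Loxl2, Bmp1, Pcolce and Adamts2) did not pass. The lysyl oxidases Loxl1, Lox and Loxl3 had log2 fold changes of 4.71 ± 0.42, 4.30 ± 0.64 and 1.66 ± 0.37 SE. Loxl3 stayed under 1 FPKM in NL and c-MYC, and the limit for testing could favor this direction here too. Lox was at 0.0510 ± 0.0643 FPKM in NL, 0.972 ± 0.0804 in c-MYC and 19.8 ± 2.95 in c-MYC/FOXO1AAA, and was also called higher in c-MYC versus NL. Bmp1, the procollagen C-proteinase, was lower in c-MYC than in NL by 2.32 on the log2 scale.

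Of 6 tested genes of collagen breakdown and its inhibitors, 4 were higher in c-MYC/FOXO1AAA versus c-MYC, against 15.9% of all genes. Among the 4, Mmp2 and Mrc2 stayed under 1 FPKM in NL and c-MYC. The limit for testing could again let in genes through c-MYC/FOXO1AAA alone. Counts of this list and of the receptors are therefore a description only. Mmp14, a membrane-bound collagenase, differed by -1.0 on the log2 scale (adjusted p = 0.231) and Timp3 by 0.32 (adjusted p = 1.0), which did not pass. Mmp2, a gelatinase, rose by 5.08 ± 0.35 SE on the log2 scale, and its level was 9.87 ± 3.80 FPKM in c-MYC/FOXO1AAA. The inhibitors Timp1 and Timp2 rose by 3.90 ± 0.38 and 2.03 ± 0.15, and Mrc2, the receptor that takes up collagen fragments, by 2.69 ± 0.43. Of 7 collagen receptors, 3 were higher and 2 lower, against 15.9% and 12.7% of all genes. Itga11, which binds fibrillar collagen with integrin beta 1, rose by 4.96 ± 0.52, and the discoidin receptors Ddr1 and Ddr2 by 3.49 ± 0.41 and 2.32 ± 0.40. Adgrg1, a receptor known to bind type III collagen, fell by 4.83 ± 0.62, from 37.2 ± 3.57 to 1.71 ± 1.68 FPKM, while Col3a1 rose.

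The length by which the authors divided each gene bore on the levels. For most collagens it was that of the longest coding transcript of GENCODE M21, but for Col4a1 it was 416 bases, a processed transcript, where the longest coding one has 6615. The deposited FPKM of Col4a1 was therefore 15.9 times that given here, that of Col9a2 5.94 times, of Col26a1 2.93 times and of Col27a1 1.66 times. All collagen levels above are on the longest coding transcript. The limit for testing was set on deposited values, and on the longest coding transcript Col9a2 would not have met it, with 1 FPKM or more in 2 libraries. Fold changes between groups do not depend on this length, while sums, shares and the ratios of chains do.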

How the data were processed

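RNA-Seq libraries of 4 NL, 3 c-MYC and 3 c-MYC/FOXO1AAA samples were analysed, grouped by their labels. The deposited values were log2 FPKM, which the authors computed with edgeR from read counts with a prior count of 2. Builds and tools in the submitters' processing notes were GRCm38 and FastQC 0.11.7, and the aligner and counter were not given in the sources used here. Library preparation is described as polyA capture or rRNA removal. Of 17069 rows, 372 without a symbol were left out. Read counts and transcript lengths were recovered from the steps between values, with a single length for 99.89% of genes.

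Genes with at least 1 deposited FPKM in at least 3 libraries (14017) were tested on the deposited log2 scale with limma 3.58.1 (R 4.3.3), with a trended, robust variance over all 10 libraries, against a change of 1.5-fold, 2-sided. p-values were adjusted over all tested genes by the Benjamini-Hochberg method, and an adjusted p under 0.05 was called. Ratios of chains were compared by exact permutation tests (SciPy 1.17.1). All 21 tested collagens were named, and members and gene lists were chosen with earlier results of these data known. The fit was tested on simulated data. Libraries were not treated as paired by replicate number. Correlations of same-numbered libraries, as deviations from their group means over all tested genes, lay between -0.0398 and 0.0272. A pairing that bears on some genes only would not show in them. Intervals and floors of 3 reads cover counting error only. Alternatives varied the pseudocount, filter, scaling, fold threshold, libraries in the fit and replicate block.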

Additional observations from a re-analysis of the deposited data

Results flagged for a closer look

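In 33 sets of 4 NL values (levels of collagens and ratios), 4 had 1 library far from the other 3, by Dixon's criterion at 95%. About 1 in 20 sets is expected to pass it by chance. NL 3 was lowest in Col14a1, at 7.52 FPKM against 9.35 to 9.69. NL 2 was highest in Col15a1, at 2.38 FPKM against 1.96 to 2.03. NL 1 was highest in Col1a1, at 3.05 FPKM against 1.62 to 1.74, and in Col9a2, at 0.0310 FPKM or 1 read against 0. The tumor groups hold 3 libraries each and were not examined in this way.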

How the results depend on the processing

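Of 59 gene results, 35 were called, 27 stayed called under each of the 18 or 19 alternatives that tested them and 30 without each library in turn (17 of the 35 were tested with a mean FPKM of at least 5), and 0 called results changed direction. In c-MYC versus NL, the 3 collagens called higher became 8 with the same FPKM total and 5 with no fold threshold, and 2 to 5 with 1 library left out; the 3 called lower became 9 with no filter and 1 with the same FPKM total. In c-MYC/FOXO1AAA versus c-MYC, the 9 called higher became 19 with no filter and 1 with a mean FPKM of at least 5, and 9 to 13 with 1 library left out. Against NL, the 13 called higher became 5 with a mean FPKM of at least 5 and 11 to 18 with 1 library left out. These filters change which collagens are tested, and all these counts are a description only. The log2 ratio of Col3a1 to Col1a1 between c-MYC/FOXO1AAA and NL turned from -0.16 to 0.16 with a pseudocount of 1, and lay between -0.56 and 0.28 with 1 library left out. Uncalled differences in c-MYC versus NL that changed sign without c-MYC 1 or c-MYC 3 were Col5a1 (-0.19 to 0.51), Col6a1 (-0.33 to 0.57, also without NL 4) and Col15a1 (-0.12 to 0.27). The cause of these changes was not tested.

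With the replicate block, 2 collagens were higher and 4 lower in c-MYC versus NL, where 23.2% and 22.5% of all genes were. Between the tumor groups 9 were higher and 3 lower (15.5% and 12.0% of all genes). In c-MYC/FOXO1AAA versus NL 12 were higher and 3 lower (30.0% and 25.7%). In the same fit, Col6a1 in c-MYC versus NL was at -0.028 on the log2 scale. With 3 or 4 libraries a group and trace collagens of a few reads, smaller differences were not detectable at this depth.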
